A study of Mus musculus with 39 samples.

Results

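MHC class II, the antigen-presenting complex that shows peptides to CD4 T cells, was followed through 8 genes in lung monocytes and alveolar macrophages of mice. The genes were H2-Aa, H2-Ab1, H2-Eb1, Cd74, H2-DMa, H2-DMb1, H2-DMb2 and the regulator Ciita. They were taken by symbol from a table of 43430 genes, and all 8 had a row. The choice of the 8 genes was made with earlier results of these data known. Gene expression was measured by RNA sequencing of polyadenylated RNA from sorted cells of C57BL/6J mice, in 39 libraries. One kind of cell was lung monocytes from naive mice. The other was alveolar macrophages of monocyte origin, gated as low in Siglec F and collected 21 days after bleomycin, which causes lung injury and then fibrosis.

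Each kind of cell came from young and old mice that received saline or ISRIB. ISRIB is a small molecule that activates the guanine nucleotide exchange factor eIF2B and so blunts the integrated stress response. It was given every day by intraperitoneal injection from day 7 in the mice that received bleomycin. The sample labels give young mice as 8 to 12 weeks old and old mice as over 18 months, whereas the text for the whole series has 3 to 5 months for the young and 18 to 24 months for the old, and the exact ages are not settled here. There were 5 libraries in each of the 8 groups of age, treatment and cell type, except 4 of young ISRIB macrophages. All macrophages came from bleomycin-treated mice and all monocytes from naive mice, so cell type and bleomycin cannot be told apart. The labels do not say that replicates were separate animals, so the p-values below measure only the spread between these samples. In sorted bulk samples, fewer cells that carry a transcript and less of it per cell cannot be told apart.

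As background, a class II molecule is an alpha and a beta chain that pair in the endoplasmic reticulum with the invariant chain, the product of Cd74, which fills the peptide groove and steers the complex to endosomes. There the invariant chain is cut down, and H2-DM, a class II-like heterodimer, exchanges its last fragment for antigen peptides. Transcription of all these genes depends on CIITA, a coactivator that binds no DNA itself but is recruited by the factors RFX, CREB and NF-Y on the X and Y boxes of their promoters. In mouse myeloid cells Ciita is induced by interferon gamma. H2-Aa and H2-Ab1 encode the alpha and beta chains of I-A. H2-Eb1 encodes the beta chain of I-E, whose alpha chain gene H2-Ea is not expressed in mice of the b haplotype such as C57BL/6J.

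The promoters of H2-Aa, H2-Eb1 and H2-DMb2 are shown because the first and second fell with ISRIB in macrophages while no fall was called in the third. The sequences run 5′ to 3′ on the gene's strand and come from the RefSeq promoter table of build GRCm38.p6. Capitals mark TGATTGG, the letters of the Y box, and, upstream of it, the letters GATGATG of the X box or TGACGTCA of a cyclic AMP response element. The stretches are chr17:34287847-34287917 on the minus strand for H2-Aa, chr17:34305762-34305832 on the plus strand for H2-Eb1 and chr17:34145112-34145183 on the plus strand for H2-DMb2. They begin 94, 105 and 137 bases before the start of transcription in that promoter table. None overlaps an exon of GENCODE vM21 on the same strand. In GENCODE vM21 the H2-DMb2 gene runs from 34143307 to 34151555, so its stretch lies inside that gene and not before its start.
H2-Aa: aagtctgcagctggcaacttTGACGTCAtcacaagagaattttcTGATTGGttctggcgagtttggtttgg
H2-Eb1: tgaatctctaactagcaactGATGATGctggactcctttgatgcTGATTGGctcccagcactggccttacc
H2-DMb2: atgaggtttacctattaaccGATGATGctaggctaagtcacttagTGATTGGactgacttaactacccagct
In H2-Aa, where GATGATG was not found, the first letters of TGACGTCA and TGATTGG lay 24 bases apart. The first letters of GATGATG and TGATTGG lay 24 bases apart in H2-Eb1 and 25 bases apart in H2-DMb2. H2-DMb1 held GATGATG and TGATTGG 25 bases apart as well, and its stretch, which overlaps an annotated exon, is not printed. Both strands were searched for each motif over 32851 promoter windows of the table. TGATTGG stood in 7.23% of them, GATGATG in 2.92% and TGACGTC, which can overlap its own reverse complement, in 2.78%. TGATTGG together with either of the other motifs stood in 0.408%. No match was found in the windows of H2-DMa, which says only that these letters are not there. H2-Ab1 and Ciita were not matched in the table, and no promoter result is given for Cd74.

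The libraries held between 4595331 and 16056708 counts (median 8628240). Levels are given as CPM, a gene's counts scaled to the library total. Ciita was read with 150 to 1828 counts per library, H2-DMb2 with 28 to 201, and the other 6 genes with at least 180. The 6 macrophage markers checked (Adgre1, Mertk, Fcgr1, Cd68, Lyz2 and Itgax) were present in all groups, and Mertk, a receptor for dying cells, averaged 2.02 to 3.89 CPM in the monocyte groups and 372 to 505 CPM in the macrophage groups. Summed, those 6 averaged 20931 ± 3490 CPM in young saline monocytes and 40350 ± 2048 CPM in young saline macrophages. In old saline mice the sums averaged 19468 ± 951 and 51051 ± 5835 CPM. The 7 classical monocyte markers summed to 15962 ± 5888 CPM in young saline monocytes and 14610 ± 2645 CPM in young saline macrophages. In old saline mice they summed to 16859 ± 2611 and 8792 ± 1627 CPM (SD, n = 5 each throughout). The 12 dendritic cell markers, from cells that carry much class II, summed to 25.1 to 64.6 CPM in macrophages and 66.5 to 317 CPM in monocytes. In macrophages Flt3, a defining dendritic cell marker, averaged at most 1.14 CPM in any group. The 12 B cell markers, from the other cell type rich in class II, summed to 8.13 to 30.3 CPM in young macrophages, 24.2 to 444 CPM in old macrophages and 154 to 293 CPM in monocytes.

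Together the 8 genes took 1.05% ± 0.127 of all counts in young saline macrophages (SD, n = 5) and 0.247% ± 0.152 in young saline monocytes (SD, n = 5). Cd74 alone made up 49.3% to 59.3% of the counts of the 8 genes in every library. Divided by the summed exon length of each gene, the order in young saline macrophages was Cd74, H2-Ab1, H2-Eb1, H2-Aa, H2-DMb1, H2-DMa, H2-DMb2 and Ciita. On that scale Cd74 reached 3272 ± 418 CPM per kb, H2-Ab1 609 ± 83.7, H2-DMb1 166 ± 7.63 and Ciita 7.99 ± 1.43 (SD, n = 5 each). The invariant chain thus stood above the chains it escorts, the chains above the peptide exchanger, and the regulator near the bottom. In all monocyte groups Ciita stood above H2-DMb2 per length. With the longest transcript as the length, Ciita also stood above H2-DMb2 in 3 of the 4 macrophage groups, old ISRIB being the exception, so the order of those genes in macrophages rests on the gene model.

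**Figure D1:**
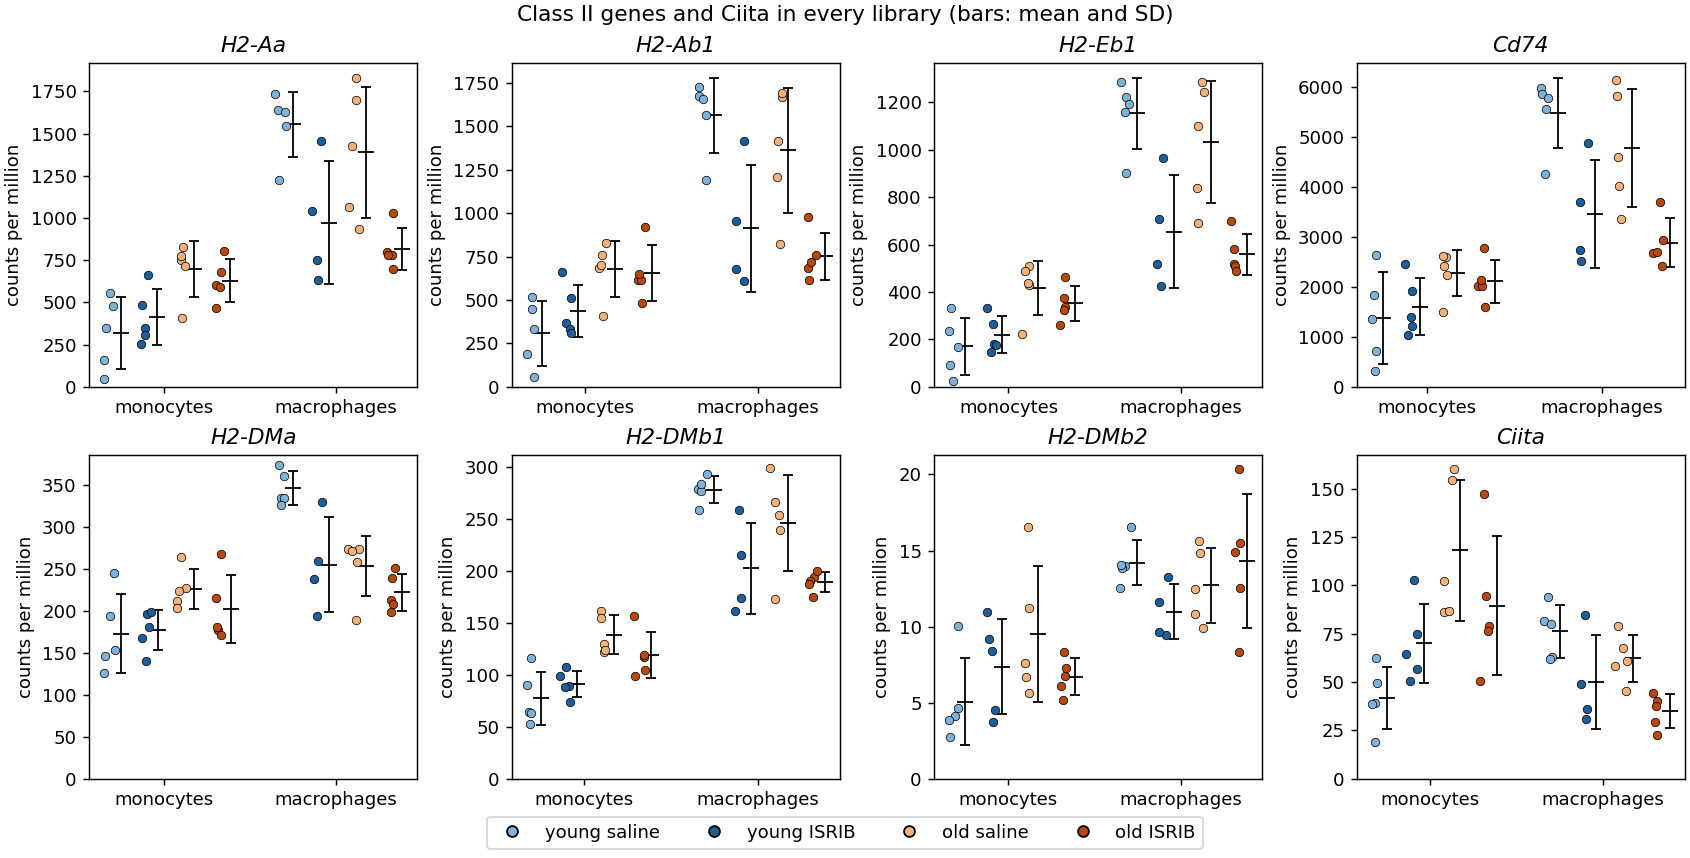
CPM (y axis, linear, from 0) of the 8 genes in each of the 39 libraries, 1 panel a gene. Points are libraries, coloured by age and treatment and placed by cell type, and bars give the group mean and SD. Ciita is the gene whose highest group is of monocytes, old saline, at 118 CPM.

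Across the 8 groups the chains and Cd74 kept 1 order: young saline, old saline, young ISRIB and old ISRIB macrophages, then old saline, old ISRIB, young ISRIB and young saline monocytes. No neighbours in that order were apart by more than 1 SD on each side for H2-Aa, H2-Ab1, H2-Eb1 or Cd74, so it holds as a gradient and not step by step. For H2-DMb1 the same order held, and old ISRIB macrophages (190 ± 9.37 CPM) lay apart from old saline monocytes (139 ± 18.7 CPM), with no overlap between libraries (SD, n = 5 each). Here and below, the share of all genes without overlap was not computed, so a lack of overlap is only a description. Ciita had another order. Its means were 118 CPM in old saline monocytes, 89.6 in old ISRIB monocytes, 76.2 in young saline macrophages, 70.0 in young ISRIB monocytes, 62.2 in old saline macrophages, 50.2 in young ISRIB macrophages, 41.6 in young saline monocytes and 34.8 in old ISRIB macrophages, again with no neighbours apart.

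With ISRIB, H2-Aa, H2-Ab1, H2-Eb1, Cd74, Ciita and H2-DMb1 fell in macrophages, while H2-DMa and H2-DMb2 did not pass the test. The first comparison asked how ISRIB changed these genes at day 21 after bleomycin, taking the mean of the log2 fold changes at both ages. By edgeR's quasi-likelihood test, with Benjamini-Hochberg adjustment over 12171 genes, 6 of the 8 genes fell, against 0.378% of all genes tested called lower. In a fit of all 39 libraries together, where macrophages and monocytes share 1 estimate of the spread, edgeR called 0 of the 8, with adjusted p of 0.0795 to 0.174 for those 6 genes, and 17 of 13587 genes in all. From the macrophage libraries DESeq2 called 7 of the 8, of 440 among 10519 genes, and limma voom 7, of 169 among 12171. The median log2 fold change was -0.71 over the 8 genes and -0.0039 over all genes tested. These genes were chosen with earlier results known, so the count is a description of them.

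H2-Eb1 had the largest fall. It read 1224, 1288, 1160, 901 and 1194 CPM in young saline macrophages and 425, 518, 966 and 708 CPM in young ISRIB macrophages. In old macrophages it read 1285, 1101, 840.1, 1245 and 692 CPM with saline and 581, 518, 509, 701 and 489 CPM with ISRIB. The treated libraries lay lower in both ages, but 1 young ISRIB library sat among the saline values and the lowest old saline library dipped below the highest old ISRIB one, so the groups overlapped. H2-Eb1 fell by 0.85 ± 0.13 on the log2 scale (SE, adjusted p 0.00569 by edgeR), to 0.554 of its level with saline. H2-Ab1 fell by 0.82 ± 0.14 (adjusted p 0.0092) and H2-Aa by 0.72 ± 0.14 (adjusted p 0.0167). The genes of both I-A chains thus moved with H2-Eb1, whose partner gene H2-Ea is not expressed in these mice.

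Cd74, the invariant chain gene, was at 5980, 5865, 5575, 4267 and 5779 CPM in young saline macrophages and at 2513, 2733, 4888 and 3707 CPM in young ISRIB macrophages. In old macrophages it was at 6146, 4605, 4022, 5825 and 3364 CPM with saline and at 2951, 2690, 2693, 3702 and 2418 CPM with ISRIB. Again the treated libraries were lower with some overlap at each age. Cd74 fell by 0.70 ± 0.12 on the log2 scale (SE, edgeR adjusted p 0.0092).

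Of the genes of the peptide exchanger only H2-DMb1 was called. It averaged 279 ± 12.8 CPM in young saline and 203 ± 44.2 CPM in young ISRIB macrophages, and 247 ± 46.5 CPM in old saline and 190 ± 9.37 CPM in old ISRIB macrophages (SD, n = 5, 4, 5 and 5). It fell by 0.42 ± 0.08 (SE, edgeR adjusted p 0.0220). That call was lost without young ISRIB replicate 1 (adjusted p 0.0755) or replicate 2 (adjusted p 0.0601). H2-DMa, the alpha chain, differed by -0.32 ± 0.08 with an adjusted p of 0.0510 and was not called by edgeR, but was called by DESeq2 (adjusted p 0.00888) and limma voom (adjusted p 0.0407), and by edgeR with a replicate block (adjusted p 0.0257) or with no filter (adjusted p 0.00124). H2-DMb2 differed by -0.09 ± 0.14 (adjusted p 0.801), at means of 14.2 ± 1.46 and 10.98 ± 1.79 CPM in young and 12.7 ± 2.47 and 14.3 ± 4.4005 CPM in old macrophages with saline and ISRIB (SD, n = 5, 4, 5 and 5). H2-DMb1 and H2-DMb2 are neighbours of similar sequence: 22.65% of the 50-base words of H2-DMb1 transcripts also occur in H2-DMb2, so reads from shared stretches may be lost or placed on the wrong gene, and both values are uncertain to that extent.

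Ciita, the regulator, read 81.7, 62.8, 94.1, 62.1 and 80.03 CPM in young saline macrophages and 30.9, 36.1, 84.9 and 48.9 CPM in young ISRIB macrophages. Old saline macrophages had 78.8, 60.9, 58.4, 67.7 and 45.2 CPM and old ISRIB macrophages 29.1, 44.4, 40.4, 37.5 and 22.7 CPM. In the old mice all ISRIB libraries were below all saline libraries, by a narrow margin, and in the young mice 1 ISRIB library lay among the saline ones. Ciita fell by 0.73 ± 0.15 (SE, edgeR adjusted p 0.0293). The adjusted p rose above 0.05 on leaving out any 1 of 7 libraries: young saline replicate 1 (0.0573), young ISRIB replicates 1 (0.0787), 2 (0.0711) and 4 (0.0600), old saline replicates 1 (0.0576) and 4 (0.0527), or old ISRIB replicate 5 (0.0512). Gene counts do not separate the promoters from which Ciita is transcribed in different cell types.

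Lower values were also seen within each age, but they were not called. In young macrophages the 8 log2 fold changes ran from -0.80 (H2-Eb1) to -0.34 (H2-DMb2), and Ciita differed by -0.59 ± 0.22 (SE, adjusted p 0.263). In old macrophages they ran from -0.91 (H2-Eb1) to 0.15 (H2-DMb2), and Ciita differed by -0.87 ± 0.21 (SE, adjusted p 0.158). By edgeR 0 of the 8 genes, and 0% of all genes tested, were called at either age, while 7 in young and 6 in old mice had an unadjusted p under 0.05. DESeq2 called 3 in young macrophages, of 105 among 6508 genes, and 5 in old macrophages, of 43 among 2968 genes, where it gave Ciita no adjusted p, and limma voom called 0 in both. The difference between the effects in old and young mice was called for 0 of the 8 genes and 0% of all genes by edgeR, DESeq2 and limma voom, with 0 of the 8 at an unadjusted p under 0.05, and Ciita differed by -0.27 ± 0.30 (SE, adjusted p 0.985), which turned to 0.0771 without young ISRIB replicate 3.

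The library of young ISRIB macrophages numbered replicate 3 had the highest H2-Aa, H2-Eb1, Cd74 and Ciita of its group. The rule for libraries far from the others, given below, did not flag it for any of the 8 genes. Each library was left out in turn, and this one is described because its absence changed the calls. It had 1457 CPM of H2-Aa where the others had 634, 754 and 1044 CPM, and in it 7 of the 8 genes, all but H2-DMb2, were inside the range of the young saline libraries. Without it edgeR called 304 genes in young macrophages, against 0 with it, and 7 of the 8 class II genes were among them, lower with ISRIB, Ciita by 0.94 (adjusted p 0.0199) and H2-Eb1 by 1.02 (adjusted p 0.00973). The dendritic cell markers summed to 57.2 CPM in this library and to 25.1, 28.8 and 35.01 CPM in the others of its group. The 8 mature alveolar macrophage markers summed to 8242 CPM in it and to 4928 to 6142 CPM in the others, and their part in the result was not tested. In old macrophages, leaving out saline replicate 3 gave 4 called class II genes, of 30 called in all, and leaving out saline replicate 5, the library with the lowest H2-Aa of its group, gave 5, of 16 in all.

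The mature alveolar macrophage markers reached higher sums with ISRIB in old mice, where they added up to 4658 to 8914 CPM with saline and 6610 to 14020 CPM with ISRIB. None of the 8 was at 0 in a macrophage group. The B cell markers summed to 24.2 to 307 CPM in old saline and 141 to 444 CPM in old ISRIB macrophages, the opposite direction to class II. The sum of the dendritic cell markers in old macrophages was 39.03 to 57.1 CPM with saline and 38.6 to 52.7 CPM with ISRIB, and in young macrophages it was 31.2 to 64.6 and 25.1 to 57.2 CPM. Other lists were lower with ISRIB, as class II was. The 7 nonclassical monocyte markers summed to 335 to 420.3 CPM with saline and 213 to 363 CPM with ISRIB in young macrophages, and to 287 to 430.4 and 252 to 282 CPM in old macrophages, where the groups did not overlap. The 8 interstitial macrophage markers averaged 1766 ± 311 CPM with saline and 1367 ± 161 CPM with ISRIB in young macrophages (SD, n = 5 and 4), and 1166 ± 287 and 897 ± 161 CPM in old macrophages (SD, n = 5 each). Some lists share a gene: Ccr2 stands in the interstitial and classical monocyte lists, and Fabp4 in the mature alveolar and nonclassical lists. The part of these cell type markers in the lower class II values was not tested.

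**Figure D2:**
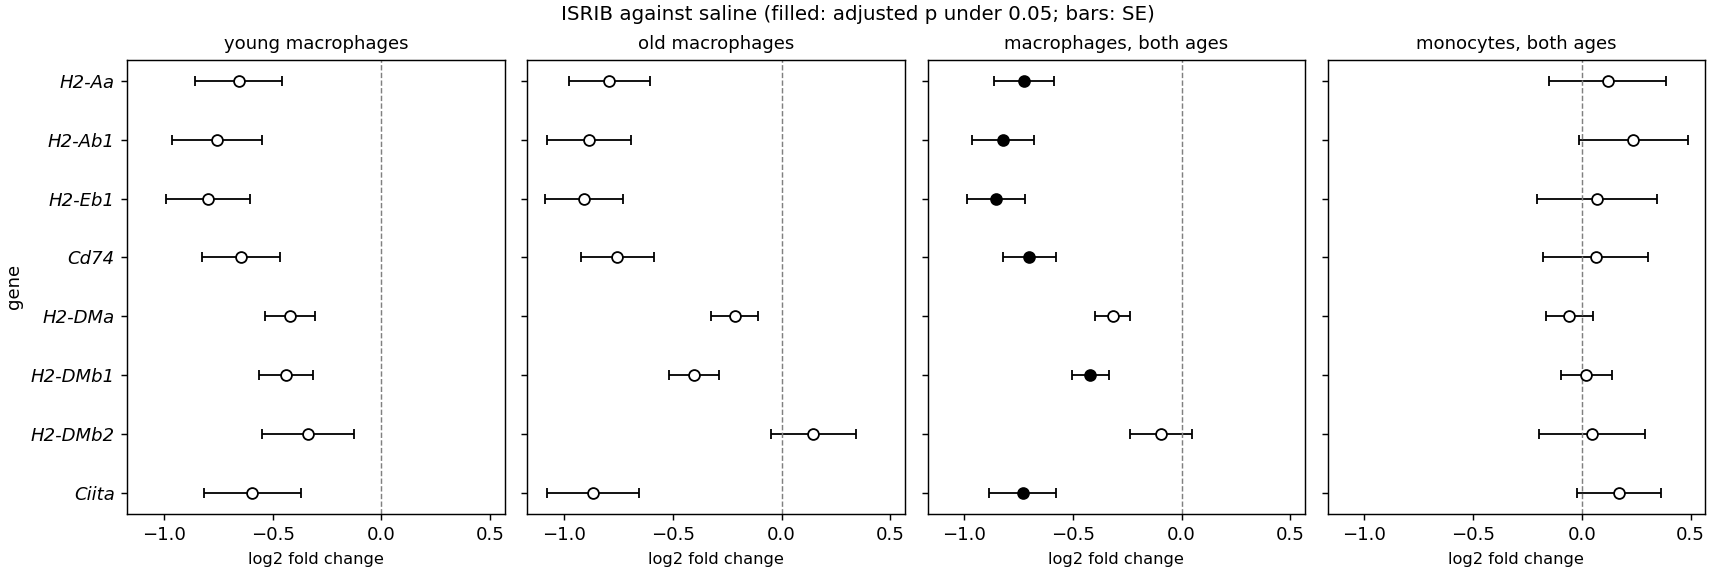
Log2 fold change of ISRIB against saline (x axis) for the 8 genes (y axis) in young macrophages, old macrophages, macrophages over both ages and monocytes over both ages, with the SE as bars and points filled where the edgeR adjusted p is under 0.05. In macrophages the points lie left of 0 except H2-DMb2 in old mice, at 0.15, and in monocytes they run from -0.06 (H2-DMa) to 0.24 (H2-Ab1).

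In monocytes from naive mice ISRIB did not give a called change in class II. H2-Aa averaged 319 ± 212 CPM with saline and 412 ± 166 CPM with ISRIB in young mice, and 695 ± 166 and 629 ± 125 CPM in old mice (SD, n = 5 each). Over both ages the 8 differences ran from -0.06 to 0.24 on the log2 scale. Ciita differed by 0.17 ± 0.19 over both ages (adjusted p 0.852), by 0.71 ± 0.28 in young (adjusted p 0.689) and by -0.37 ± 0.27 in old monocytes (SE, adjusted p 0.811, edgeR throughout). All 8 values were above 0 in young and below 0 in old monocytes. At each age, over both ages and for the difference between the ages, edgeR called 0 of the 8 genes and 0% of all genes. DESeq2 and limma voom also called 0 of the 8 in each, and an unadjusted p under 0.05 was reached by Ciita alone, in young monocytes and in the difference between ages, where it differed by -1.08 ± 0.39 (SE, adjusted p 0.608).

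The ISRIB effects in macrophages and monocytes were then set against each other in 1 model of all 39 libraries, a test added after the values were seen. All 8 differences were below 0, with a median of -0.82 against -0.012 over all genes tested. By edgeR 0 of the 8 genes and 0% of all genes passed, 6 of the 8 had an unadjusted p under 0.05, and DESeq2 and limma voom called 0. Ciita differed by -0.91 ± 0.27 (SE, adjusted p 0.294). A difference between the cell types in their response to ISRIB was therefore not shown for any of these genes.

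Class II genes read higher in old than in young monocytes given saline, and the largest difference was in Ciita. Ciita had 38.9, 49.3, 62.6, 38.5 and 18.7 CPM in young saline monocytes and 102, 86.4, 155, 160.4 and 86.6 CPM in old saline monocytes. Every old library was above every young one. The difference was 1.46 ± 0.28 on the log2 scale, with an adjusted p of 0.0665 by edgeR, so it was not called. H2-DMb1 also had no overlap, at 52.8 to 116 CPM in young and 122 to 162 CPM in old monocytes, and differed by 0.81 ± 0.17 (SE, edgeR adjusted p 0.107). How many of all genes separated in this way was not counted, so the lack of overlap only describes Ciita and H2-DMb1.

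All 8 genes were above 0 in that comparison, with a median of 1.003 against 0.0053 over all genes tested. By edgeR 0 of the 8 were called, against 0.0247% of all genes, and 7 had an unadjusted p under 0.05. DESeq2 called 2, of 46 among 12168 genes, and limma voom 0. With ISRIB the differences with age ran from -0.10 to 0.71, Ciita differed by 0.39 ± 0.27 (SE, adjusted p 0.913), 0 of the 8 genes and 0% of all genes were called by edgeR, 1 of the 8 had an unadjusted p under 0.05, and DESeq2 and limma voom called 0.

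Taken as the mean over saline and ISRIB, 1 of the 8 genes rose with age in monocytes, H2-DMb1, by 0.61 ± 0.12 on the log2 scale (SE, edgeR adjusted p 0.0290), against 0.0986% of all genes called higher. It averaged 77.4 ± 25.7 and 91.5 ± 12.5 CPM in young and 139 ± 18.7 and 119 ± 22.4 CPM in old monocytes with saline and ISRIB (SD, n = 5 each). Its call was lost without any 1 of 11 libraries, at adjusted p of 0.0508 to 0.0736: young saline replicates 1 and 2, young ISRIB replicates 1, 2 and 5; replicates 1, 3 and 4 of old saline and replicates 1, 2 and 3 of old ISRIB monocytes. Ciita differed by 0.93 ± 0.19 with an adjusted p of 0.0601. It was called without young saline replicate 3 (0.0316), young ISRIB replicate 4 (0.0390), old saline replicate 2 (0.0450) or old ISRIB replicate 5 (0.0425).

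Class II varied widely among young saline monocytes. H2-Aa read 161, 351, 481, 553 and 48.3 CPM there and 407 to 829 CPM in old saline monocytes. The lowest library, replicate 5, also had the lowest Ciita, at 18.7 CPM, and Cd74, at 322 CPM. Its 7 classical monocyte markers summed to 23239 CPM, the highest of the group, and its 7 nonclassical markers to 1703 CPM, the lowest, against 3102 to 4624 CPM in the others. Over the group the dendritic cell markers ran from 66.5 to 239 CPM, and from 86.3 to 183 CPM in old saline monocytes. T and NK cell markers, 9 genes, summed to 7.87 to 39.2 CPM in young and 20.8 to 98.6 CPM in old saline monocytes. Interstitial macrophage markers were higher with age, at 2706 ± 660.3 CPM in young and 3668 ± 676 CPM in old saline monocytes, and mature alveolar macrophage markers were lower, at 1535 ± 361 and 829 ± 301 CPM (SD, n = 5 each). Because Ccr2 and Fabp4 in these lists are also monocyte markers, the sums cannot tell macrophages from kinds of monocytes. Marco had no count in young and Fabp1 none in old saline monocytes. The part of these markers in the class II values was not tested.

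In macrophages no class II gene was called with age within either treatment. In saline-treated mice all 8 differences were below 0, from -0.41 to -0.11, and Ciita differed by -0.25 ± 0.20 (SE, adjusted p 0.687). By edgeR 0 of the 8 were called, against 1.16% of all genes, and 1 had an unadjusted p under 0.05. DESeq2 called 1, of 294 among 12171 genes, and limma voom 0. With ISRIB the 8 differences ran from -0.52 (Ciita, SE 0.22, adjusted p 0.319) to 0.37 (H2-DMb2), with 0 called against 0.937% of all genes, 1 at an unadjusted p under 0.05, and 0 called by DESeq2 and limma voom.

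H2-DMa was the exception in macrophages. It read 374, 361, 335, 335 and 327 CPM in young saline and 274, 274, 272, 259 and 190 CPM in old saline macrophages, without overlap. In ISRIB-treated mice it read 195 to 330.1 CPM in young and 199 to 251 CPM in old macrophages, with the old values inside the young range. As the mean over both treatments it fell with age by 0.31 ± 0.08 on the log2 scale (SE, edgeR adjusted p 0.0222), 1 of the 8 genes against 1.74% of all genes called lower. The call was lost without young ISRIB replicate 3 (adjusted p 0.0679). Ciita differed by -0.38 ± 0.15 in the same comparison (SE, adjusted p 0.159). In saline-treated mice alone H2-DMa differed by -0.41 ± 0.11 (SE, adjusted p 0.0608), and without old saline replicate 2 edgeR called 1 of the 8 genes. The 7 classical monocyte markers summed to 12273 to 19174 CPM in young and 7040 to 10861 CPM in old saline macrophages. Interstitial macrophage markers averaged 1766 ± 311 and 1166 ± 287 CPM there. The 6 macrophage markers were higher with age, at 40350 ± 2048 and 51051 ± 5835 CPM (SD, n = 5 each). The part of these markers in the age differences was not tested.

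The age differences of the 2 cell types in saline-treated mice differed from each other for 2 of the 8 genes, against 0.103% of all genes called lower, by edgeR in 1 model of all libraries. For Ciita the age difference in macrophages was 1.69 ± 0.37 lower on the log2 scale than that in monocytes (SE, adjusted p 0.0336), and for H2-DMb1 0.93 ± 0.21 lower (SE, adjusted p 0.0368). All 8 genes were below 0, with a median of -1.11 against 0.017 over all genes tested. Ciita lost its call without old saline monocyte replicates 3 (0.0763) or 4 (0.0507), young saline macrophage replicates 1 (0.0618) or 3 (0.0615), or old saline macrophage replicates 3 (0.0679) or 5 (0.0925). H2-DMb1 lost its call without any 1 of 9 libraries, at adjusted p of 0.0531 to 0.106: those 6, young saline monocyte replicates 1 and 2, and young saline macrophage replicate 2.

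Macrophages from bleomycin-injured lungs carried more class II RNA than naive monocytes. In young saline-treated mice all 8 genes were higher by edgeR, where 31% of all genes were called higher. H2-Eb1 differed most, by 2.82 ± 0.35 on the log2 scale (SE), at 1154 ± 149 CPM in macrophages and 170 ± 121 CPM in monocytes (SD, n = 5 each). H2-Ab1 differed by 2.40, H2-Aa by 2.34, Cd74 by 2.06, H2-DMb1 by 1.90, H2-DMb2 by 1.59 and H2-DMa by 1.05, with adjusted p from 9.91e-14 to 1.20e-05. Ciita was the smallest, at 0.90 ± 0.27 (SE, adjusted p 0.00353). The median was 1.98, against 0.0073 over all genes tested.

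In old saline-treated mice Ciita and the genes it controls went in opposite directions between the cell types. Ciita was lower in macrophages, at 62.2 ± 12.3 CPM against 118 ± 36.6 CPM in monocytes (SD, n = 5 each), by 0.79 ± 0.26 on the log2 scale (SE, edgeR adjusted p 0.00925), without overlap. In the same libraries 5 genes were higher in macrophages: H2-Eb1 by 1.45, Cd74 by 1.22, H2-Ab1 by 1.15, H2-Aa by 1.14 and H2-DMb1 by 0.97, with adjusted p from 6.03e-07 to 0.00295. H2-DMa differed by 0.30 (adjusted p 0.0554) and H2-DMb2 by 0.56 (adjusted p 0.0832) and were not called by edgeR. In limma voom all 8 genes were called, of 8091 among 13587. With a replicate block edgeR called 7, of 7676 among 13587, and with the groups compared only 7, of 7199 among 11756. Of all genes 29.7% were called higher and 27.3% lower, so a call in either direction was common in this comparison.

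**Figure D3:**
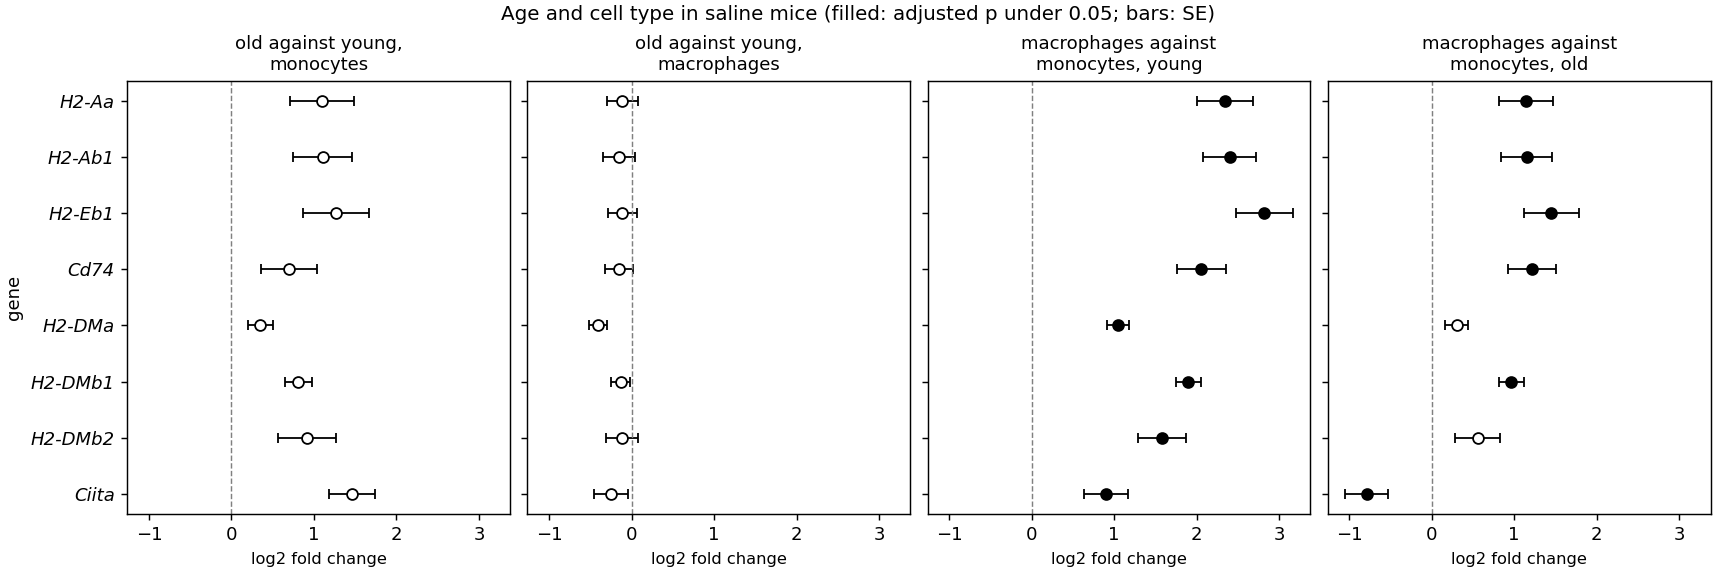
Log2 fold change (x axis) of the 8 genes (y axis) with age in saline-treated monocytes and macrophages, and between macrophages and monocytes in young and old saline-treated mice, with the SE as bars; filled points have an edgeR adjusted p under 0.05. Ciita lies at 1.46 with age in monocytes, the highest of the 8, and at -0.79 between cell types in old mice, the only point left of 0 there.

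Between libraries of the same group, Ciita and most class II genes went up and down together. How many of all genes followed Ciita as closely was not computed, so the correlations only describe these genes. Within macrophages, with each group's mean removed from the log2 CPM, Pearson's r with Ciita was 0.81 for H2-Aa, 0.79 for H2-Ab1, 0.76 for Cd74, 0.74 for H2-Eb1, 0.73 for H2-DMa and 0.68 for H2-DMb1 over 19 libraries, with adjusted permutation p of 0.00322 to 0.00778. Spearman's rho ran from 0.63 to 0.77 for these 6 genes (adjusted permutation p 0.00471 to 0.0211). H2-DMb2 had r of -0.15 (adjusted permutation p 0.58) and rho of -0.09 (adjusted permutation p 0.739). In monocytes r was 0.56 to 0.75 for the same 6 genes over 20 libraries (adjusted permutation p 0.00364 to 0.0433), rho was 0.53 to 0.70 (adjusted permutation p 0.00471 to 0.0345), and H2-DMb2 had r of 0.18 (adjusted permutation p 0.533) and rho of 0.22 (adjusted permutation p 0.416). The p-values came from 100000 two-sided permutations within groups and were adjusted over the 14 pairs.

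The relation was then computed with a narrower range of Ciita and fewer libraries. Without the macrophage libraries farthest from the median of Ciita, young ISRIB replicates 1 and 3, r was 0.70 for H2-Aa, 0.66 for H2-Ab1, 0.65 for Cd74 and 0.64 for H2-DMa, and these 4 passed by Pearson's r (adjusted permutation p 0.0436), while none passed by Spearman's rho (adjusted permutation p from 0.0543). H2-Eb1 (r of 0.58, adjusted permutation p 0.0796) and H2-DMb1 (r of 0.53, adjusted permutation p 0.0826) did not. In monocytes, without young saline replicate 5 and old ISRIB replicate 1, r was between 0.18 and 0.51 for the 6 genes other than H2-DMb2 and none passed (adjusted permutation p from 0.0826 to 0.563). Spearman's rho there was 0.25 to 0.53 for the same genes, and none passed (adjusted permutation p 0.0829 to 0.387). A narrower range of Ciita and fewer libraries weaken such a test by themselves. It therefore cannot decide whether the monocyte relation rests on those libraries. Both values of a point come from the same library, and the part of cell makeup in the relation was not tested.

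**Figure D4:**
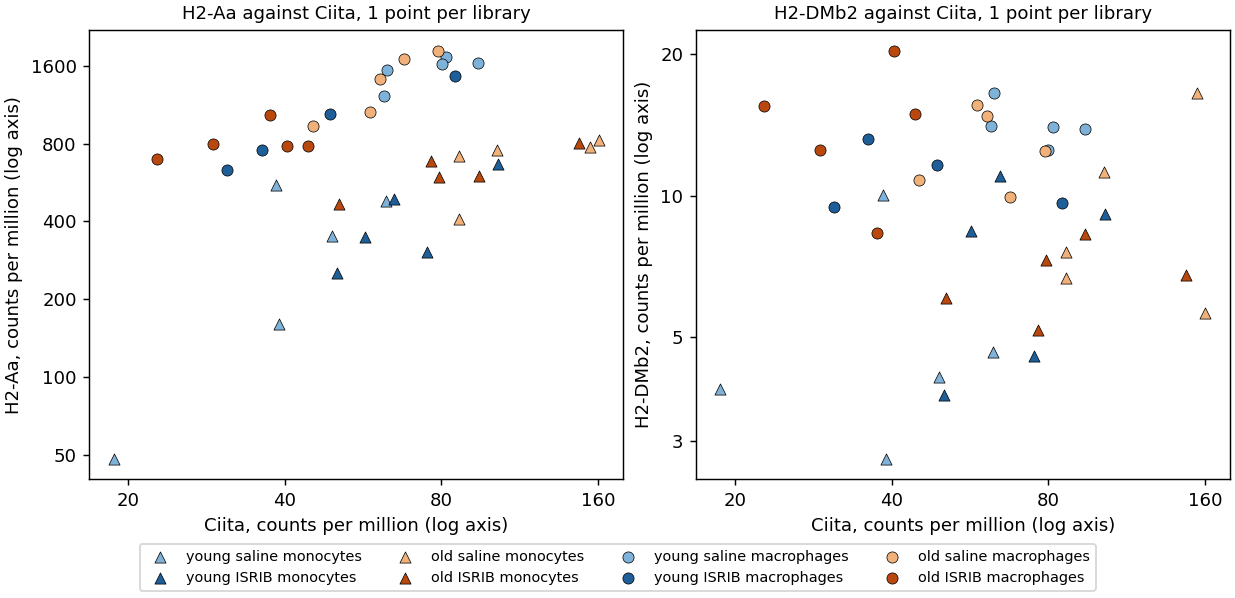
CPM of H2-Aa (left) and H2-DMb2 (right) against Ciita, all axes logarithmic, 1 point per library, coloured by age and treatment, with circles for macrophages and triangles for monocytes. Macrophages lie above monocytes in H2-Aa at similar Ciita, and 3 old monocyte libraries hold the highest Ciita, at 147 to 160.4 CPM, with H2-Aa of 773 to 829 CPM.

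Of the other class II genes, H2-Ob, the beta chain of H2-DO, a modulator of H2-DM that is typical of B cells, rose with age in macrophages by 1.48 ± 0.35 as the mean over both treatments (SE, edgeR adjusted p 0.0132). It averaged 1.81 ± 0.943 and 5.00 ± 3.34 CPM in young and old saline macrophages (SD, n = 5 each). The B cell markers were higher in the old macrophages too, as given above, mostly through the immunoglobulin heavy chain gene Ighm, at 9.62 ± 8.81 CPM in young and 102 ± 103 CPM in old saline macrophages (SD, n = 5 each); their part in H2-Ob was not tested. In young mice H2-Ob was lower in macrophages than in monocytes by 1.34 (edgeR adjusted p 0.00981). H2-Ea averaged at most 0.0249 CPM in any group, and H2-Eb2 and H2-Oa at most 3.07 CPM.

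Among 20 promoter factors and inducers of class II, 1 fell with ISRIB in macrophages as the mean over both ages, the interferon-induced factor Irf1, by 0.53 ± 0.11 (SE, edgeR adjusted p 0.0324). It averaged 49.8 ± 11.7 and 33.7 ± 3.87 CPM in young and 49.7 ± 9.12 and 34.999 ± 5.29 CPM in old macrophages with saline and ISRIB (SD, n = 5, 4, 5 and 5). The median log2 fold change of the 20 was -0.06, near that of all genes. The 6 interferon gamma readouts in the table had a median of -0.52 over the 5 that passed the filter, with 0 called. Between cell types 0 of the 20 factors were called higher in macrophages, while 13 were lower in young and 14 in old saline-treated mice. Of all 13587 genes 4211 were called higher and 3935 lower in young mice, and 4034 and 3705 in old mice. The lower factors were led in young mice by Irf1 (-1.95), the interferon gamma receptor chain gene Ifngr1 (-1.72), Irf2 (-1.24) and Creb1 (-1.18). In old mice they were led by Irf1 (-2.09), Irf4 (-2.03), Ifngr1 (-1.96) and Irf2 (-1.05). The medians of the list were -0.66 in young and -0.56 in old mice. Of the 5 interferon readouts tested, the GTPase gene Iigp1 was higher in macrophages of young mice by 3.60, and Cxcl10 (-1.69), Nlrc5 (-1.49) and Gbp2 (-1.38) were lower. In old mice Nlrc5 (-1.25) and Gbp2 (-1.10) were lower and none was higher.

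Of the genes that process antigen in endosomes, 8 of 10 in young and 7 of 10 in old saline-treated mice were called higher in macrophages. Of all genes 31% and 29.7% were called higher there. The medians of the 10 were 1.51 and 1.81 on the log2 scale. The largest differences were in the protease genes Ctsd (4.96 in young and 5.45 in old mice), Ctsl (3.92 and 3.93), Lgmn (2.59 and 2.28) and Ctss (2.27 and 2.17), all on the log2 scale. Cathepsin S, from Ctss, and cathepsin L, from Ctsl, cut the invariant chain. In young mice 1 of the 10 was lower, the protease inhibitor gene Cst3, by 0.39. With ISRIB 1 of the 10 fell in macrophages over both ages, Ifi30, a thiol reductase of antigen processing, by 0.41 ± 0.10 (SE, edgeR adjusted p 0.0403), and with age Ctsd rose in macrophages, by 0.43 with saline (adjusted p 0.0231) and by 0.31 over both treatments (adjusted p 0.0105).

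Of 3 genes for class II turnover, the ubiquitin ligase gene Marchf8 was higher in macrophages by 2.31 in young and 2.29 in old saline-treated mice, and Marchf1, a related ligase gene, was lower by 0.73 and 0.60. None of the 3 was called with ISRIB or age by edgeR. Among 6 genes of T cell contact, the costimulatory receptor gene Cd40 fell with ISRIB in macrophages by 1.42 ± 0.33 (SE, edgeR adjusted p 0.0403), at 4.53 ± 1.60 and 1.29 ± 0.910 CPM in young and 4.36 ± 2.11 and 2.16 ± 0.405 CPM in old macrophages with saline and ISRIB (SD, n = 5, 4, 5 and 5). With age in saline macrophages Cd86, a ligand of CD28, fell by 0.47 (edgeR adjusted p 0.0256) and Cd274, which encodes the inhibitory ligand PD-L1, rose by 0.53 (edgeR adjusted p 0.0144). Between cell types Cd274 was higher in macrophages by 3.72 in young and 3.63 in old mice, Pdcd1lg2 by 2.35 and 1.98, and Cd40 was lower by 2.44 and 2.73.

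The genes most like class II were found by the mean Pearson r of their log2 CPM with H2-Aa, H2-Ab1, H2-Eb1 and Cd74 over all libraries of a cell type, as a description. In macrophages, among 9604 genes and over 19 libraries, they were Pla2g16 and Arpc1b (both at 0.92), Bcl3 (0.90), Eno1 (0.89) and Csrp1 (0.89). Ciita itself reached 0.90 on this measure and H2-DMb2 -0.07. In monocytes, among 9171 genes and over 20 libraries, they were Cd6 (0.87), Adgrg5 (0.86), Nab2 (0.85), Tnfrsf12a (0.85) and Ltb (0.84), and Ciita reached 0.83. No gene stood in the top 5 of both cell types.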

How the data were processed

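The authors deposited 1 table of raw read counts per gene. Per the submitters' processing notes, bcl2fastq 2.19.1, FastQC, Trimmomatic 0.36, STAR 2.6.0, HTSeq 0.11.2 and build mm10 were used; neither the annotation version nor the strand setting is stated in the material used. Per the labels' protocols, libraries were made from 3 ng of RNA. Symbols were looked up in GENCODE vM21. The 8 genes, the gene lists and the comparisons were chosen with earlier results of these data known.

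Macrophages, monocytes and, for comparisons between them, all 39 libraries were each fitted with edgeR 4.0.16 (R 4.3.3; filterByExpr minimum count 10, TMM, quasi-likelihood test, group means, Benjamini-Hochberg over all genes tested, called under 0.05). Every called gene of the 8 is named, Ciita whatever its call, and up to 4 called genes of a list with the largest change. Alternatives were DESeq2 1.42.0, limma voom 3.58.1, RLE size factors, no filter, other sets of libraries, a replicate block and leaving out each library. The 76 pairs of libraries within groups differed by more than sampling noise (chi-square per degree of freedom 5.94 to 41.0). The tests were tested on simulated data. Correlations used a prior count of 2 (NumPy, SciPy).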

Additional observations from a re-analysis of the deposited data

Results flagged for a closer look

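In groups of 4 or 5 libraries, 5 of 64 combinations of gene and group held a library far from the others, where chance gives about 1 in 20. Replicate 2 of old saline monocytes was low in H2-Aa, at 407 CPM, and in H2-Eb1, at 223 CPM. Replicate 4 of young saline macrophages was low in Cd74, at 4267 CPM. Replicate 5 of old saline macrophages was low in H2-DMa, at 190 CPM. Replicate 4 of young saline monocytes was high in H2-DMb2, at 10.01 CPM.

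The age difference in saline-treated mice differed between the cell types for Ciita, by -1.69 on the log2 scale, and for H2-DMb1, by -0.93, macrophages minus monocytes, in a test of the difference itself.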

How the results depend on the processing

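With RLE size factors the count of called genes was the same as with TMM in all 18 comparisons. The fall with ISRIB in macrophages over both ages was called for 0 of the 8 genes with all 39 libraries in one fit (adjusted p 0.0795 to 0.174 for the 6 genes called otherwise), for 7 by DESeq2, limma voom, no filter and the replicate block, and for 4 to 7 on leaving out 1 library. Over all genes DESeq2 called 440 of 10519, limma voom 169 of 12171, no filter 640 of 22729 and the replicate block 343 of 12171. At each age DESeq2 called 3 in young and 5 in old macrophages, no filter 7 and 6, and leaving out 1 library 0 to 7 and 0 to 5. With no filter 224 genes in young and 220 in old macrophages were called, of 22729. With age, saline macrophages gave 1 called gene by DESeq2 (294 of 12171 genes in all), no filter (468 of 22729) and the replicate block (180 of 12171), and 0 to 1 on leaving out 1 library. ISRIB macrophages gave 1 with no filter (405 of 22729 in all). Macrophages over both treatments gave 2 with no filter (975 of 22729 in all), 0 with all 39 libraries in one fit and 0 to 1 on leaving out 1 library. Saline monocytes gave 2 by DESeq2 (46 of 12168 genes in all), no filter (15 of 23338), the replicate block (7 of 12170) and all 39 libraries in one fit (34 of 13587), and 0 to 1 on leaving out 1 library. Monocytes over both treatments gave 2 by DESeq2 (83 of 12168 in all) and the replicate block (12 of 12170), 4 with no filter (40 of 23338), 3 with all 39 libraries in one fit (44 of 13587) and 0 to 2 on leaving out 1 library. The difference of age effects between cell types gave 1 with the groups compared only (19 of 12515 in all), 3 by DESeq2 (141 of 12795) and the replicate block (37 of 13587), and 0 to 3 on leaving out 1 library. The cause of these shifts was not tested.

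The correlation of Ciita with H2-DMb2 in monocytes passed with pooled values (r of 0.49, adjusted permutation p 0.0286). Without the 2 libraries farthest from the median of Ciita, r was 0.58 for H2-Eb1 and 0.53 for H2-DMb1 in macrophages, and 0.51 for H2-Aa, 0.49 for H2-Ab1, 0.42 for H2-Eb1, 0.44 for Cd74, 0.18 for H2-DMa and 0.41 for H2-DMb1 in monocytes, none past the threshold. The difference of the ISRIB effect on Ciita between ages in macrophages was -0.27 and ran from -0.45 without young ISRIB replicate 1 to 0.0771 without young ISRIB replicate 3, the 1 library whose absence turned its direction. With that library left out, H2-DMa differed with age in macrophages by -0.24 (edgeR adjusted p 0.0679). The labels do not say what a replicate number marks. Same-numbered libraries had a mean correlation of -0.0004 in macrophages and -0.0045 in monocytes, and 6 of 19 and 1 of 20 libraries correlated best with their own number. A mean near 0 cannot exclude that some samples were paired or shared a batch, so pairing is not settled. H2-DMb2 had the fewest counts, 28 to 201 a library, and its SE for ISRIB in macrophages, 0.14, equalled that of H2-Aa when rounded. Between cell types in old saline-treated mice 6 genes were called by edgeR and DESeq2, 8 by limma voom and 7 with the replicate block. Over all genes edgeR called 7739 of 13587, DESeq2 7946 of 13586, limma voom 8091 of 13587 and the replicate block 7676 of 13587.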
